A study of Mus musculus with 20 samples.

Results

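H3K14ac peaks that occurred in old but not in young mouse liver, away from any gene start, were described from the deposited peak lists. The lists came from chromatin immunoprecipitation followed by sequencing (ChIP-Seq) with antibodies to acetylated lysine 14 of histone H3 (H3K14ac), to Setdb1 and to Kap1, in snap-frozen liver of wild type male C57BL/6 mice. Young mice were 3 months and old mice 21 months of age, with 3 livers per age for H3K14ac and Setdb1 and 2 livers per age for Kap1. The members were chosen by measured values, namely the peak calls of both H3K14ac lists. A member is a peak of the old list on chromosomes 1 to 19, exactly 500 bp wide, that shares no base with a young peak and lies more than 5 kb from every transcript start site of the GENCODE basic annotation. Of the 20463 old H3K14ac peaks, 20120 lay on these chromosomes, 19690 of them were 500 bp wide, 15997 of those shared no base with any of the 19350 young peaks, and 8779 were also far from start sites. The members were thus 42.9% of the old H3K14ac list and stood among 175329 peaks in the 6 lists of the series. Livers of an age were merged before peaks were called and the lists hold positions only. Hence no spread between livers, no signal height and no depth per peak can be given, and no test over animals was possible. Intervals below are 95% Wilson intervals for a share and 95% Newcombe intervals for a difference between shares, and cover counting error over peaks only. A peak missing from a list only means that it did not pass the threshold there, and in whole liver a mark carried by fewer cells cannot be told apart from a weaker mark in each cell.

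Acetylation of histone tails loosens nucleosome contacts and marks active promoters and enhancers, and H3K14ac is written by several acetyltransferase complexes. Setdb1 is a histone methyltransferase that trimethylates lysine 9 of histone H3, a repressive mark, and its Tudor domains bind histone tails that carry H3K14ac. Kap1, the product of Trim28, is the corepressor that brings Setdb1 to sites chosen by zinc finger proteins of the KRAB family, many of which bind repeats. Kap1 and Setdb1 peaks were independent of the rule, whereas the H3K14ac calls and the distance to start sites were used by it and are given as a description.

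The tissue label was set against marker genes first. The share of all genes with a peak within 1 kb of a start site was not computed. The counts below are therefore a description and do not test the label. Of 12 hepatocyte markers, 5 had an old H3K14ac peak within 1 kb of a start site (Ttr, Apoa1, Apoa2, Apob and Pck1), and 6 had a young one. Among the markers of Kupffer cells and macrophages, of T and B cells and of liver endothelial cells, 0 had a peak at either age. Stellate cell and neuron markers had 0 in old and 2 each in young liver. Bile duct cell and skeletal muscle markers had 1 each in old liver (Sox9 and Mylpf) and 0 in young.

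Peaks on either side of each threshold lay within a few bases of each other. The member closest to a start site (chr14:69845421-69845920) lay 5001 bp from one of Pebp4, and the closest peak outside (chr5:99605937-99606436) lay 4997 bp from one of Gm16228. The member closest to a young peak (chr10:7159541-7160040, near Cnksr3) was separated from it by 3 bp. The peak kept out by the least overlap (chr7:31082775-31083274, near Fxyd3) shared 2 bp with a young peak. At the other extreme, the member farthest from any start site (chr1:114594205-114594704) lay 625059 bp away from that of Gm4854.

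The central 300 bases of members from 3 groups are printed from the plus strand of GRCm38, in lower case. These members were picked for motifs, factor peaks or a run, and do not stand for the members at large. Of all members, 87.8% met neither Kap1 nor Setdb1 at either age. Coordinates given with a sequence are those of the printed bases, not of the whole 500 bp peak. The first group is nearest to genes of the liver lists and held the most different liver motifs in these bases, with capitals for matches to a FOXA or C/EBP motif. Of 112 such members that could be printed, 2 held 2 different liver motifs, 18 held 1 and 92 held 0. Examples are given at 2 genes. The member upstream of Cpt1a, which brings fatty acids into mitochondria (chr19:3304263-3304562), lay between genes, 18623 bp from the start site. The member in an intron of Tcf7l2, a transcription factor of the Wnt pathway (chr19:55901368-55901667), lay at 5758 bp and held only C/EBP matches.
Cpt1a: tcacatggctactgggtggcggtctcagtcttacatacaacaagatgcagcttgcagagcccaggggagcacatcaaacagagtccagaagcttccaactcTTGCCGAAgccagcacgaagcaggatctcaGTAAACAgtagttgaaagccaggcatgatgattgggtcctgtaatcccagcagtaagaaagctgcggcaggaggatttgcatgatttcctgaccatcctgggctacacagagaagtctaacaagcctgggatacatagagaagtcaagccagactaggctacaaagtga
Tcf7l2: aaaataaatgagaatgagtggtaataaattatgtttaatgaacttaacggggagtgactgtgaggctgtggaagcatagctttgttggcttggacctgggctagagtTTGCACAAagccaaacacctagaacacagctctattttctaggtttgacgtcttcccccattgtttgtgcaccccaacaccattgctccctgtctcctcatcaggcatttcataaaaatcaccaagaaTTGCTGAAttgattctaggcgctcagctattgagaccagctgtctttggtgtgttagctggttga

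The next group met both a Kap1 and a Setdb1 peak of old liver, and capitals mark the bases that lay in both peaks. The member near 4933402N22Rik (chr5:11956182-11956481) shared 419 bases of its whole width with both factors and was 98.2% soft-masked, that is, annotated as repeat. The member on chromosome 12 (chr12:22783164-22783463) lay 996702 bp from its nearest protein-coding gene, Gm10330, shared 248 bases, had a GC content of 62.4% and had 1 further copy in the genome. The member near Cr2, a complement receptor gene (chr1:195208833-195209132), shared 163 bases and was 75% soft-masked.
4933402N22Rik: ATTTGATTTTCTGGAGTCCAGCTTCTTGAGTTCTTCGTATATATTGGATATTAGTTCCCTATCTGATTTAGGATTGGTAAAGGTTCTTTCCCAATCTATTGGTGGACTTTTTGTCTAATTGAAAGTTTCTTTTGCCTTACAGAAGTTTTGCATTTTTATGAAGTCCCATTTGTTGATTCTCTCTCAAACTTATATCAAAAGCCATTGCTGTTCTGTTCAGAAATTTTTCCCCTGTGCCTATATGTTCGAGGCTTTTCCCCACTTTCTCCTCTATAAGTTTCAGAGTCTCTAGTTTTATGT
chromosome 12 member: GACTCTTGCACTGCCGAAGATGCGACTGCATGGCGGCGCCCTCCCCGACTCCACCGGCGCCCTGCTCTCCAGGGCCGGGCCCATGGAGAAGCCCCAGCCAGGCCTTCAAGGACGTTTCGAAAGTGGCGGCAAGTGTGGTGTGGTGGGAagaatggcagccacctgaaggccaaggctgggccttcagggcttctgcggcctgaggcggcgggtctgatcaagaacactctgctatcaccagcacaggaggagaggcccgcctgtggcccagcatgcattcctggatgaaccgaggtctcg
Cr2: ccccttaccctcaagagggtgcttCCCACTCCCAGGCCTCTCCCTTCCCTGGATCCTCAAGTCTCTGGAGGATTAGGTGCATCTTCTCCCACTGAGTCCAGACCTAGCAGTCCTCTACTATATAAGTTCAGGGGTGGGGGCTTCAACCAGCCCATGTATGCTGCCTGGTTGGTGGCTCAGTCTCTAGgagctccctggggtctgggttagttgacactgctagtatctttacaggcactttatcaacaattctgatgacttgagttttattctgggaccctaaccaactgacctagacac

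The last group comes from the largest run of members, which lay on chromosome 7 beyond Ccnd1, and capitals mark bases in a Kap1 peak of old liver. Both printed members were among the 3 of its 33 members that met such a peak. The first (chr7:145034860-145035159) lay in a Kap1 peak over 468 of its 500 bases and the other (chr7:145008207-145008506) over 150. Both had a GC content of 53.2%, between genes.
Run 1: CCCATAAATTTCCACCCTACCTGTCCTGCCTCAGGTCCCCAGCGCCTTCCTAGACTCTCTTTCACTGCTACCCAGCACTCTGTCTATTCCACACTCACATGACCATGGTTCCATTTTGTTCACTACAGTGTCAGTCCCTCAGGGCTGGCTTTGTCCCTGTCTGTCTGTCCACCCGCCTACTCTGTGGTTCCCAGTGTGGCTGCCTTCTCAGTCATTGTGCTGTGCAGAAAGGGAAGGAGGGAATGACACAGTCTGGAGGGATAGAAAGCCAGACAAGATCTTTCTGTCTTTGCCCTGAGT
Run 2: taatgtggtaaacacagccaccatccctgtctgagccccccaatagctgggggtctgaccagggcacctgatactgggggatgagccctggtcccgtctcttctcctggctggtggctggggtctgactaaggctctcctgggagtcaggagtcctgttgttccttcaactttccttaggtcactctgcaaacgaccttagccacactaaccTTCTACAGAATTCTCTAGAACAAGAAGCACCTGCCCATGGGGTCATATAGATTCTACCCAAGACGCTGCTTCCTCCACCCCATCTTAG

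Kap1 and Setdb1 were the measurements that the rule did not use. Most members met neither factor at either age (7707 of 8779, 87.8%, 87.1% to 88.5%). A Kap1 peak of old liver shared a base with 361 members (4.11%, 3.72% to 4.55%), whereas it met 0.576% of all 500 bp windows of the same chromosomes more than 5 kb from start sites. The share of members was 7.13 times that of the windows, which were not matched for nearness to other H3K14ac peaks. Of windows within 10 kb of a member but apart from it, 1.74% met old Kap1. A Kap1 peak of young liver met 658 members (7.5%, 6.96% to 8.06%) and 1.24% of all the windows, a ratio of 6.05. The young Kap1 list was the longer one, with 48915 peaks against 22141, so the shares at the 2 ages are best read against their own windows. Setdb1 was rarer. An old Setdb1 peak met 76 members (0.866%, 0.692% to 1.08%) and 0.408% of windows, and a young one met 217 members (2.47%, 2.17% to 2.82%) and 1.47% of windows. These are ratios of 2.12 and 1.69. Seen from the factors, 1.61% of old Kap1 peaks (356 of 22141) and 0.555% of old Setdb1 peaks (77 of 13877) touched a member. Where a gap of up to 500 bp was allowed, the shares with old Kap1 and old Setdb1 were 7.29% and 1.95%, more than 1.5 times those above. The shares with young Kap1 and young Setdb1 also rose to more than 1.5 times those above. No window share is given for that gap, so the ratios hold for shared bases only. In the first 50% of the old list as deposited, whose order is not explained in the sources used here, old Setdb1 met 0.549% of members.

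Members differed from other H3K14ac peaks in these shares. Their nearest counterparts are the 9698 young-only peaks chosen the same way from the young list. Old Kap1 met 5.80% of those (members minus young-only, -1.68 percentage points, -2.31 to -1.06), although the Kap1 list was that of the members' own age. Young Kap1 met 9.37% of young-only peaks, a difference of -1.88 points (-2.68 to -1.08). With each set beside Kap1 of its own age, members were at 4.11% and young-only peaks at 9.37% (-5.26 points, -5.98 to -4.55), a contrast that holds the unequal lengths of the Kap1 lists. For Setdb1 the intervals of the difference included 0, with -0.227 points (-0.513 to 0.0597) for the old and -0.374 points (-0.838 to 0.0924) for the young list. In the first 50% of each list the old Setdb1 difference was -0.553 points (-0.975 to -0.123), an interval below 0.

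The contrast with the 907 old peaks far from start sites that did share bases with a young peak was far larger. Of these shared peaks 36.8% (33.7% to 40.0%) met old Kap1 and 44.9% (41.7% to 48.1%) met young Kap1. Members were lower for old Kap1 (-32.7 points, -35.9 to -29.6) and for young Kap1 (-37.4 points, -40.7 to -34.1). Old Setdb1 met 3.31% of shared peaks, which put members at -2.44 points (-3.83 to -1.44). Against the 7218 old-only peaks within 5 kb of a start site, members were higher, by 1.37 points (0.804 to 1.93) for old Kap1 and by 0.547 points (0.312 to 0.788) for old Setdb1. Members thus stood between the peaks near start sites and the peaks kept at both ages.

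**Figure D1:**
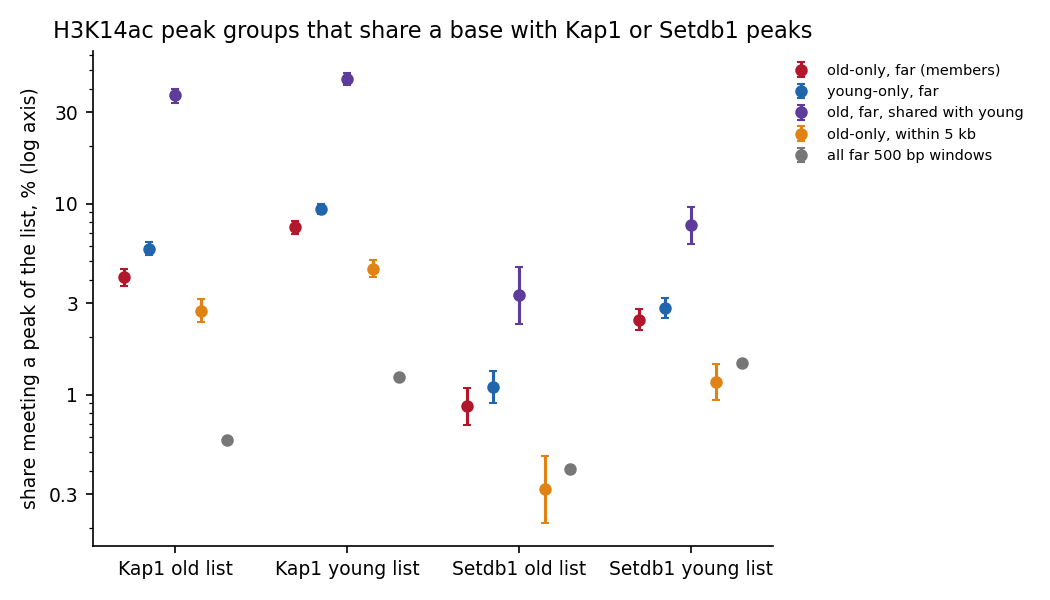
Share of each H3K14ac peak group, and of all 500 bp windows more than 5 kb from start sites, that shares at least 1 bp with a peak of the Kap1 or Setdb1 list of each age (%, log axis, bars are 95% Wilson intervals). Members (red) lie above the windows in all 4 lists, at 4.11% against 0.576% for old Kap1, and below the peaks shared with young liver (36.8%).

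Kap1 at the members was also compared between ages. Of the 361 members with an old Kap1 peak, 170 (47.1%, 42.0% to 52.2%) also met a young one, and of the 658 with a young Kap1 peak, 25.8% (22.6% to 29.3%) met an old one. Of all windows with an old Kap1 peak 20.5% met a young one, and of those with a young peak 9.55% met an old one. At young-only far peaks with young Kap1, 32.6% (29.6% to 35.7%) met old Kap1. For Setdb1, 5 of the 76 members with an old peak (6.58%, 2.84% to 14.5%) met a young one, beside 3.83% of the windows with an old peak. Where they met, the centres of member and Kap1 peak lay a median of 120 bp apart in old liver (quartiles 52.0 and 238 bp) and those of member and Setdb1 peak 108 bp (quartiles 65.5 and 198 bp). Within old liver, Kap1 met 13 of the 76 members with Setdb1 (17.1%, 10.3% to 27.1%) and 348 of the 8703 without (4.0%, 3.61% to 4.43%), while over the genome 2.38% of the windows with old Setdb1 met old Kap1, compared with 0.576% of all windows.

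Those 13 members (0.148%) met peaks of both factors in old liver, as did 18 young-only far peaks (0.186%) and 23 shared ones (2.54%). Over all windows the share was 0.0097%. In 8 of the 13 members at least 1 base lay in all 3 peaks. The 13 members fell between genes in 10 cases and in introns in 3, and 7 also met young Kap1 and 2 young Setdb1. A pair lay near Chil4, a chitinase-like gene, on chromosome 3. The first (chr3:106231251-106231750) lay 769 bp from a young H3K14ac peak, shared 251 bases with Kap1 and 200 with Setdb1, and met both factors in young liver as well. The other (chr3:106261352-106261851) shared 480 bases with Setdb1 but only 3 with Kap1. Introns held the member in C230088H06Rik and Gm26624 (chr4:147413911-147414410), the member in Dpp6, a potassium channel subunit gene (chr5:26946154-26946653), and the member in the kinase gene Wnk2 (chr13:49037159-49037658). The first of these shared 149 bases with both factors and was entirely soft-masked.

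The share of members with Kap1 varied with position. Members 5 to 10 kb from a start site met old Kap1 in 6.25% of cases (106 of 1697, 5.19% to 7.5%), and those over 100 kb away in 1.54% (15 of 972, 0.937% to 2.53%). The windows changed less over the same classes, from 0.744% to 0.497%. Old Setdb1 met 0.412% of members (0.2% to 0.849%) in the nearest class and 1.34% (0.783% to 2.27%) in the farthest. These separate intervals overlap slightly, and no interval of the difference between the classes was computed. The windows were at 0.367% and 0.453%. The distance to the young H3K14ac list separated the members more. Old Kap1 met 18.7% (112 of 600, 15.8% to 22.0%) of members less than 1 kb from a young peak and 1.26% (34 of 2696, 0.904% to 1.76%) of those at 100 kb or more. Windows in those classes were at 3.39% and 0.320%. Between genes 5.02% of members (4.43% to 5.68%) met old Kap1, in introns 2.84% (2.34% to 3.45%) and over exons 4.26% (2.93% to 6.17%). The windows had the same order between genes and introns, with 0.658% and 0.452%, and were at 0.689% over exons.

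Members in larger runs met Kap1 more often, as did young-only far peaks. Joined where the gap was at most 10 kb, the 8779 members formed 7517 runs, of which 6676 were single peaks, 636 pairs and 43 runs of 5 or more members. Old Kap1 met 2.65% of single members (177 of 6676, 2.29% to 3.06%), 4.87% (3.82% to 6.20%) of those in pairs, 12.2% (9.70% to 15.3%) in runs of 3 or 4 and 19.1% (57 of 299, 15% to 23.9%) in runs of 5 or more. Young-only far peaks joined in the same way went from 3.01% (2.63% to 3.44%) of single peaks to 23.1% (20% to 26.5%) in runs of 5 or more, and 6.66% of them lay in such runs compared with 3.41% of members. The ground between members had higher shares as well. Of the windows inside runs of 5 or more members, which include those that hold a member, 14.7% met old Kap1, and 10.1% in runs of 3 or 4. Within 10 kb of any member, but apart from it, 1.74% of windows did, and 0.474% elsewhere. An old Setdb1 peak met 0.809% of single members (0.620% to 1.05%) and 1.34% (0.521% to 3.39%) of those in runs of 5 or more, where the windows were at 1.33%.

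**Figure D2:**
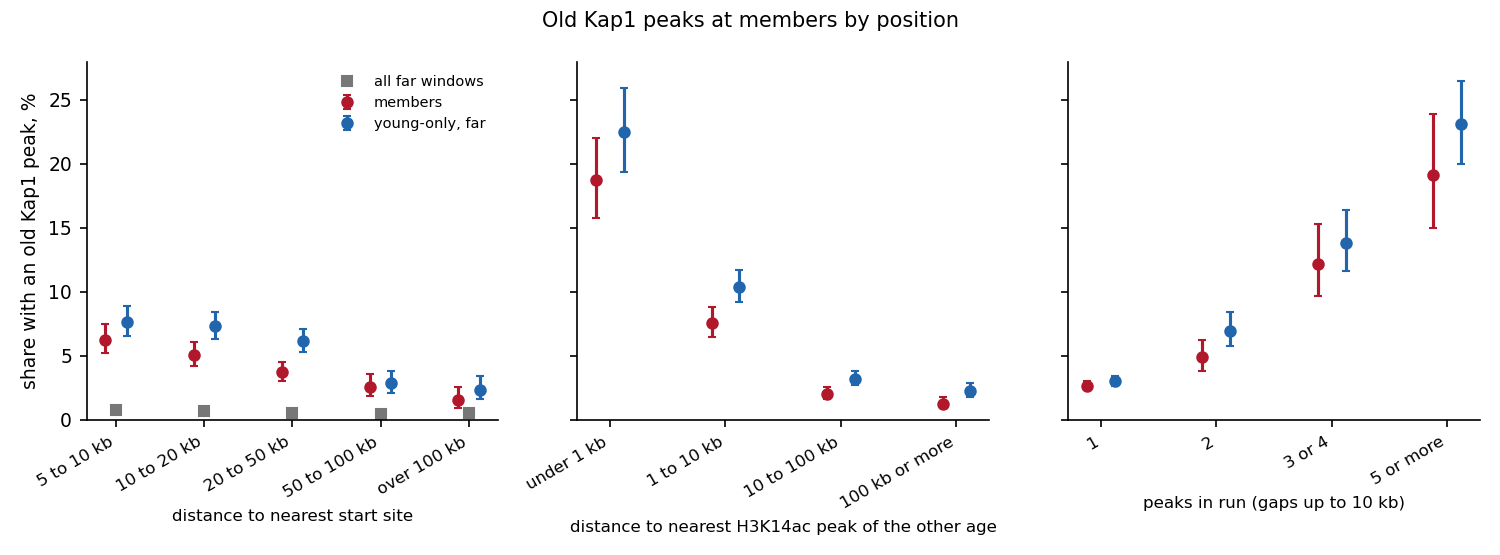
Share of members (red) and of young-only far peaks (blue) that share a base with a Kap1 peak of old liver (%, linear axis from 0, bars are 95% Wilson intervals), by distance to the nearest start site, by distance to the nearest H3K14ac peak of the other age, and by the number of peaks in a run with gaps of up to 10 kb. Grey squares, drawn only in the panel on distance to start sites, are all windows far from start sites. The members fall from 18.7% to 1.26% with distance from young peaks and rise from 2.65% to 19.1% with the size of the run.

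Old-only calls often had a young peak in the vicinity. The median member lay 37553 bp from the nearest young H3K14ac peak (quartiles 8134 and 133344 bp). In 2480 members (28.2%) a young peak lay within 10 kb, against 9.36% of the windows that were apart from young peaks, and in 600 (6.83%) within 1 kb, against 1.00%. The rule set only the bound at 0 bp. Counts per 1 Mb varied widely. Among 2410 bins with at least 200 eligible windows the median was 2 members, 553 bins had 0, and 166 had over 10, which together held 2769 members and 2466 young-only peaks. Per chromosome, chromosome 4 had the most members (746, or 5.98 per eligible Mb) and chromosome 7 the highest density (6.06 per Mb), while chromosome 16 was lowest (2.80 per Mb) and the mean was 4.56 per Mb. Chromosome 2 had the largest share of members among both kinds of far peaks, 53.6%, compared with 47.5% over all chromosomes.

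**Figure D3:**
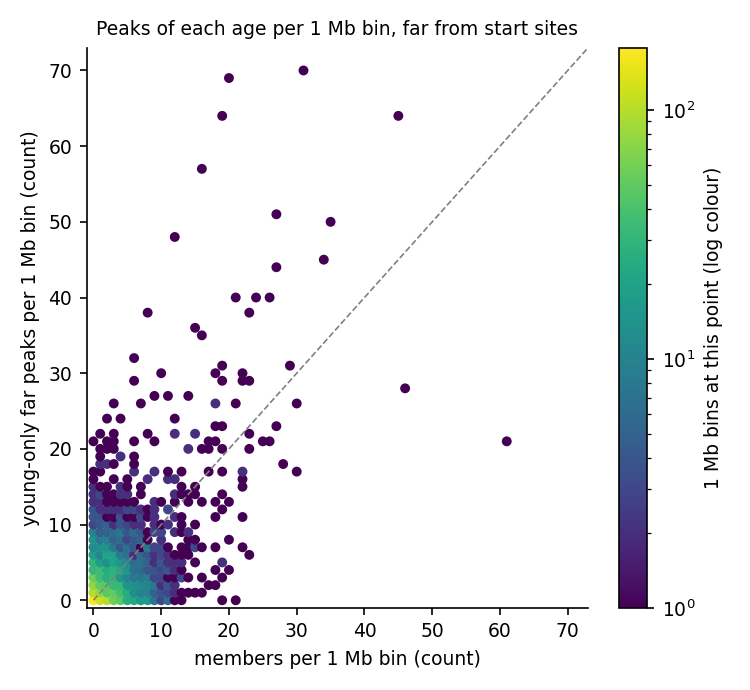
Number of members (horizontal axis) and of young-only far peaks (vertical axis) in each of 2410 bins of 1 Mb, with colour for the number of bins at a point (log colour) and a dashed line at equal counts. Most bins hold few of either, and the bin with 61 members has 21 young-only peaks.

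The bin richest in members was the first on chromosome 7 beyond 145 Mb (chr7:145000001-146000000), which reaches past the chromosome's end and holds 0.2885 Mb of eligible windows. It had 61 members and 21 young-only peaks, and 79 old and 144 young Kap1 peaks, but 1 old and 7 young Setdb1 peaks. Next came the bin of Chil4 and Chil3 on chromosome 3 with 46 members and 28 young-only peaks. In the bin of Vps13d on chromosome 4, 45 members lay beside 64 young-only peaks, and in that of Zfp619, a zinc finger gene, on chromosome 7, 31 beside 70. Dense bins thus leaned to either age.

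The largest run (chr7:145000863-145108884, 108 kb) held 33 members between Ccnd1, the cyclin D1 gene, and 1810010D01Rik, and overlapped no gene body. Over the same stretch the old list had 51 H3K14ac peaks and the young list 23, of which 8 were young-only far peaks. Kap1 was dense there, with 18 old and 30 young peaks, which is 167 old peaks per Mb compared with 8.69 per Mb over chromosomes 1 to 19. Of the 33 members 3 met an old Kap1 peak (9.09%, 3.14% to 23.6%) and 8 a young one, and Setdb1 had 0 peaks at either age. The median GC content of its members was 51.4%. None of the 33 had a further near-identical copy in the genome.

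Other leading runs lay in or beside genes. Within Ptdss1, which makes phosphatidylserine, 14 members fell in 38.8 kb (chr13:66939889-66978689), beside 10 young-only peaks. Within Vps13d, a lipid transfer protein gene, 10 members fell in 34.2 kb (chr4:145011001-145045152), beside 9. Another run, nearest to the interferon-induced GTPase gene Gvin1 (chr7:106246470-106276947), had 10 members beside 9 young-only peaks in 30.5 kb, and its members were more repetitive, with a median of 47.1% soft-masked bases. Kap1 peaks of old liver reached 155 per Mb in the Ptdss1 run, 58.6 in Vps13d and 361 near Gvin1. In these 3 runs old and young H3K14ac peaks lay within the same stretch, and Kap1 peaks of both ages lay among them. DNA input and copy number were not measured in the lists, and their part in these runs was not tested.

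**Figure D4:**
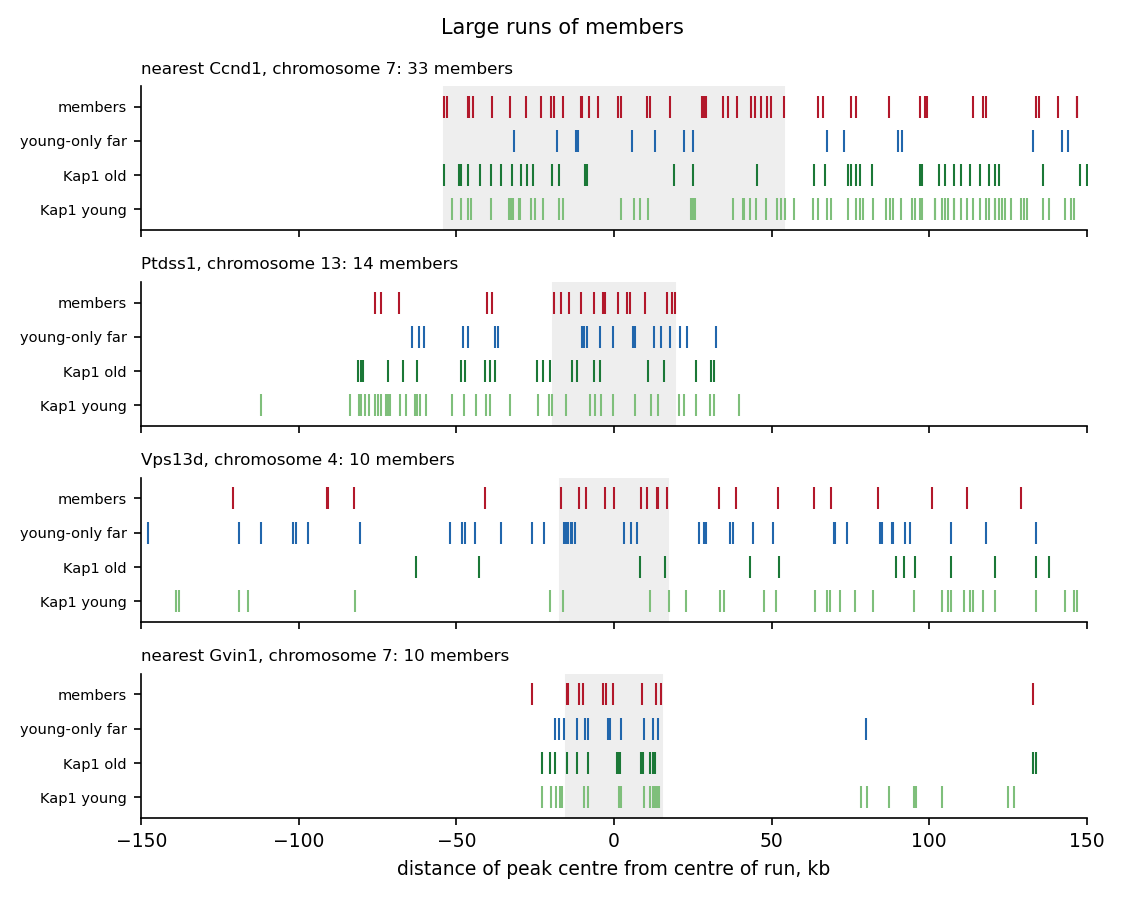
Centres of members, young-only far peaks and Kap1 peaks of both ages in 4 of the largest runs of members, as distance in kb from the centre of the run (grey area, the run itself). Members and young-only peaks share the same stretch in the runs of Ptdss1, Vps13d and Gvin1, while the run nearest to Ccnd1 has 33 members and 8 young-only peaks.

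Members were also counted by gene body, a count that depends partly on gene length. Cntnap2, a long neuronal adhesion gene, held 22 members and 6 young-only peaks, which is 11.1 and 3.02 per Mb of body beyond 5 kb from start sites. Stard13, a regulator of the cytoskeleton, held 22 members in a far shorter body (126 per Mb) and 12 young-only peaks, and the model Gm42906, which overlaps it, 25 and 12. Adcy2, an adenylate cyclase, held 20 and 10, and Vps13d 20 and 36. Fgf14, which modulates sodium channels, had 16 of each. Kcnt2, a potassium channel gene, held 13 members and 0 young-only peaks, whereas Ptdss1 had 14 and 13 and Tpcn2, a lysosomal cation channel gene, 13 and 8. Csmd3 held 12 and 3, the phosphatase gene Ptprj 11 and 6, Lingo2 9 and 8, and Maml2, a Notch coactivator, 9 and 2. The model Gm20388, which spans many genes on chromosome 8, had 26 and 16. Over all protein-coding bodies, members stood at 4.61 and young-only peaks at 4.70 per Mb. These genes were chosen for their counts, which are a description.

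Each member was also given to the protein-coding gene with the nearest start site within 100 kb. This placed 5441 members (62.0%) at 3368 genes, which is 16.2% of the 20807 protein-coding genes of these chromosomes, and 112 genes had 5 or more. Young-only peaks were nearest to 3179 genes, 15.3%. Of the genes with a member 38.3% also had a young-only peak, and of those with a young-only peak 40.5% also had a member. Counts for gene lists are read beside 16.2%, bearing in mind that long genes and those with distant neighbours gather more peaks. With a limit of 20 kb in place of 100 kb, they are read beside 7.98%. Then 6 liver transcription factors, 5 nuclear receptors, 8 fatty acid, 3 cholesterol and 4 glucose metabolism genes had a member. So did 1 apolipoprotein, 5 cytochrome P450, 4 acute phase, 2 inflammation, 3 senescence, 3 clock and 2 H3K9 and H3K14 enzyme genes. Genes named from these lists below were picked for having the most members nearest. That choice favours members over young-only peaks in the counts of a named gene, which are a description.

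Liver transcription factors had members at 9 of 15 genes (60.0%, 23 members), and young-only peaks at 10 of 15. Tcf7l2 had 4, of which 3 were in its body. Onecut1, which encodes HNF6, had 4 members and 0 young-only peaks, and the nearest (chr9:74873587-74874086) lay in an intron at 11.7 kb. Foxa1, a pioneer factor, had 4 and 1, the closest at 8.28 kb between genes and 166 bp from a young peak. Cebpa, the C/EBP alpha gene, had 3 and 0. Of the nuclear receptors and their partners 7 of 25 (28%) had a member and 6 (24.0%) a young-only peak. Rxra, the common partner of metabolic nuclear receptors, led with 9 members and 4 young-only peaks, and its closest member (chr2:27699250-27699749) was intronic at 9.54 kb. Esr1 had 3 members and 0 young-only peaks, and Rora 2 and 1. In the gene body Esr1 held 3 members and 3 young-only peaks, and Rora 4 and 10.

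In the list of fatty acid and triglyceride metabolism 11 of 32 genes (34.4%) had members, and 7 (21.9%) had young-only peaks. Lipc, hepatic lipase, had 3 members and 0 young-only peaks, and Srebf1, the lipogenic transcription factor, had 3 and 1, the closest over an exon at 6.63 kb. Cpt1a had 2 and 1. For cholesterol and bile acid metabolism the count was 8 of 27 (29.6%) with members and 9 (33.3%) with young-only peaks, led by Abca1, a cholesterol exporter with 2 members in its body and 0 young-only peaks, and by Insig2, with 2 and 2. Cyp7b1 had 1 and 1, and Abcb4, the phospholipid exporter of bile, 1 and 3. Only 1 of 14 apolipoprotein genes (7.14%) had members, Apoa1, with 2.

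For glucose metabolism 9 of 21 genes (42.9%) had a member and 5 (23.8%) a young-only peak. The insulin receptor gene Insr had 3 members and 0 young-only peaks, all 3 in its body, and Igf1 had 2 and 0, whereas Fbp1, an enzyme of gluconeogenesis, had 3 and 9. Foxo3 had 1 and 2. Cytochrome P450 and conjugation genes had members at 8 of 26 (30.8%). Cyp2c29 had 5 members and 6 young-only peaks, Sult2a8 5 and 4, Ahr 2 and 1, and Cyp2e1 2 and 0. The acute phase, complement and coagulation list had 6 of 28 (21.4%) for either kind of peak, with 1 member each at C8a, Cp, Plg and C3. The member near C3 (chr17:57234409-57234908) lay over an exon at 6.27 kb, and 106 bp from a young peak.

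After the apolipoproteins, inflammation and interferon genes had the lowest share among the lists that are not cell type markers, with 4 of 30 (13.3%) for members and 9 of 30 for young-only peaks. Cxcl13, a B cell chemokine gene, had 15 members and 11 young-only peaks, of which 4 members met old Kap1. Socs3 had 3 members, Il6ra 1 and Irf8 1. Senescence and cell cycle genes had 6 of 22 (27.3%). Ccnd1 led with 12 members within 100 kb, and the closest, 61.0 kb away, was the first of the largest run. Ccne1 had 5 members and 8 young-only peaks, Cdk6 3 and 1, and Mdm2 1 and 0. Of the circadian clock genes 6 of 19 (31.6%) had a member, among them Per2 with 3, Hlf with 2 and Arntl with 1.

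Among enzymes and partners of H3K9 and H3K14 modification, 6 of 28 genes (21.4%) had a member. Atf7ip, whose product stabilises Setdb1, had 2 members and Kat6a, an acetyltransferase gene, 1. Trim28, which encodes Kap1 itself, had 1 (chr7:13017990-13018489), in an intron 5.66 kb from a start site and 5428 bp from the nearest young peak, with no Kap1 peak of old liver. The neuronal adhesion and synapse genes, which are long and best known from neurons, had members at 12 of 20 (60.0%) and young-only peaks at 7 (35.0%). At a limit of 20 kb in place of 100 kb, 2 of the 20 had a member, beside 7.98% of all protein-coding genes. Per Mb of body they stood at 3.6 for members, under the 4.61 of all genes, and at 1.84 for young-only peaks. Cntnap2 and Nrxn3 had 5 nearest members each and Kcnip4 4. Among the cell type marker lists, members were nearest to 4 of 12 hepatocyte (Apoa1, Alb, Pck1, Ttr) and 5 of 8 endothelial genes (Tek with 2, Stab2, Pecam1, Kdr). They were nearest to 5 of 10 neuron (Dlg2 and Grin2b among them), 2 of 6 bile duct (Cftr, Spp1) and 1 of 9 macrophage genes (C1qa). Of the others, 1 of 8 stellate cell (Col3a1), 0 of 9 T and B cell and 0 of 10 muscle genes had a member. Young-only peaks were nearest to 5 hepatocyte, 2 endothelial, 4 neuron, 1 bile duct, 0 macrophage, 3 stellate cell, 0 T and B cell and 0 muscle genes. With the limit at 20 kb, members were nearest to 3 hepatocyte, 2 endothelial and 1 macrophage genes, and to 0 neuron, bile duct and stellate cell genes.

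Position within genes was compared with windows far from start sites over the genome. Introns held 39.3% of members (38.3% to 40.3%) and 40.4% of windows, the space between genes 53.8% (52.7% to 54.8%) and 54.0%, and exons 6.95% (6.44% to 7.5%) and 5.55%. The intervals of the members excluded the window share for introns and exons. The median GC content was 44.8% in members, 44.4% in young-only peaks and 41.4% in windows, and 57.4% in old-only peaks near start sites. Members averaged 4.65 CpG per 500 bp (SD 5.69 over peaks) and windows 3.88 (SD 3.45). At least 15 CpG were found in 3.18% of members (2.83% to 3.57%), in 1.40% of young-only peaks (1.19% to 1.66%) and in 1.40% of windows. Members held fewer annotated repeats than windows, with a median of 16.4% soft-masked bases compared with 19.2% in young-only peaks and 24.0% in windows. Old-only peaks near start sites were lower, with a median of 7.20%. Over 50% soft-masked were 13.6% of members (12.9% to 14.4%), 19% of young-only peaks (18.2% to 19.8%) and 24.9% of windows. Reads that align to several places were discarded before peak calling, and the part of this filter was not tested.

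Members rich in repeats met Kap1 more often than those with fewer, as did young-only far peaks. Old Kap1 met 9.69% (8.14% to 11.5%) of the 1197 members that were over 50% soft-masked and 3.23% (2.86% to 3.65%) of those up to 50%, whereas windows in these classes were at 0.644% and 0.554%. For old Setdb1 the shares were 1.67% (1.08% to 2.57%) and 0.739% (0.569% to 0.958%), and in windows 0.327% and 0.435%. Of young-only far peaks over 50% soft-masked, 10.9% (9.56% to 12.4%) met old Kap1. Those over 0% to 50% were at 4.59% and those at 0% at 4.67%. Old Setdb1 met 2.22%, 0.875% and 0.389% of young-only far peaks in these classes. Only 72 members (0.820%, 0.652% to 1.03%) had a further copy in the genome at 95% identity over 90% of their length, as did 1.37% of young-only and 7.5% of shared peaks. Of those 72 members 26 met old Kap1 (36.1%, 26.0% to 47.6%), and without them the share of members with old Kap1 was 3.85%. Old Kap1 met 36.8% (29.1% to 45.3%) of the young-only far peaks with a further copy.

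Short motifs were counted as exact letters on both strands, none of which contains another in full. Their presence is a description of letters, not of binding. Members were set beside all windows and beside windows weighted to their GC classes (5% wide). The members' interval lay above the weighted share for FOXA, AP-1, GATA and the hexamer AGGTCA, below it for the C form of HNF6, YY1, the E-box and the cAMP response element, and across it for the other 8. FOXA (TGTTTAC) was found in 7.44% of members (6.91% to 8.01%), 7.48% of windows and 6.63% of weighted windows. C/EBP (TTGCNNAA) was in 19.7% (18.9% to 20.5%), 22.2% and 20.1%. HNF4A (CAAAGTCCA) was in 0.752% (0.591% to 0.955%), 0.646% and 0.660%, and HNF1 (GTTAATNAT) in 1.40% (1.18% to 1.67%), 1.86% and 1.34%. HNF6 in its T form (TATTGAT) was in 6.05% (5.57% to 6.57%) and 5.97% of weighted windows, and in its C form (TATCGAT) in 0.513% (0.383% to 0.685%) and 0.764%. The hexamer AGGTCA, a core of nuclear receptor sites, reached 28.2% (27.3% to 29.2%), compared with 25.4% of windows and 27.0% when weighted.

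Other motifs were counted in the same way. AP-1 (TGANTCA) was in 15.2% of members and 14% of weighted windows, the motif AGATAAG of GATA factors in 7.57% and 6.71%, STAT (TTCNNNGAA) in 16.0% and 16.2%, ETS (CCGGAAG) in 1.85% and 2.05%, and YY1 (AANATGGC) in 882 members (9.44% to 10.7%) and 11.5% of weighted windows. The E-box of clock and Myc factors (CACGTG) was in 5.13% and 5.73%, the D-box (TTATGNAA) in 8.34% and 8.75%, and the cAMP response element (TGACGTCA) in 0.205% and 0.348%. Unweighted windows were at 14.5% for AP-1, 7.39% for GATA, 4.78% for the E-box and 0.266% for the cAMP response element. Each of these unweighted shares lay inside the members' interval. TGCCGC, the core bound by the KRAB zinc finger protein ZFP57, was in 3.88% of members (3.50% to 4.31%), 3.28% of young-only peaks and 4.07% of weighted windows. It was the 1 motif of 16 whose difference between members and young-only peaks had an interval above 0 (0.605 points, 0.0694 to 1.15), and no allowance was made for 16 comparisons.

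**Figure D5:**
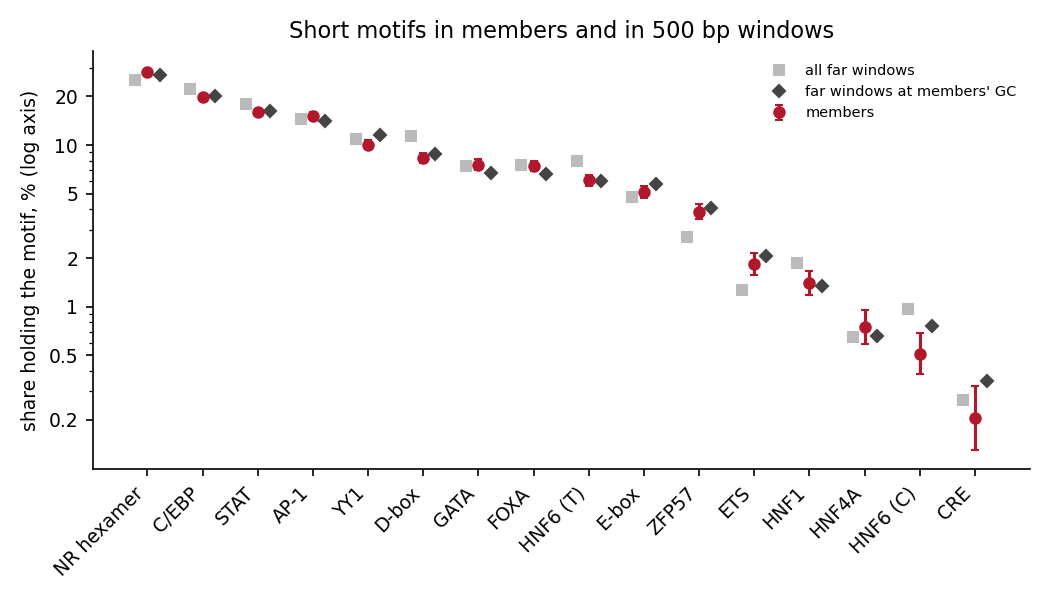
Share of members that hold each of 16 motifs on either strand (red, %, log axis, bars are 95% Wilson intervals), beside all windows far from start sites (light squares) and the same windows weighted to the GC classes of the members (dark diamonds). The hexamer of nuclear receptor sites is most frequent at 28.2% of members and the cAMP response element rarest at 0.205%.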

How the data were processed

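Peak positions were taken as deposited, 1 list per antibody and age. According to the study's methods, the authors mapped reads to mm10 (BWA), discarded duplicates (Picard) and any read without a unique position or under a phred score of 30, and pooled the livers of each age. PeakSeq then called peaks relative to input DNA at a false discovery rate of 5% and a q-value of 0.02 (H3K14ac), 0.04 (Setdb1) or 0.05 (Kap1). The deposited lists hold chromosome, start and end only, so depth is unknown.

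Overlap meant at least 1 shared base and was checked against bedtools 2.31.1. Start sites, exons and gene bodies were those of GENCODE M21 basic, and sequence was that of GRCm38. Windows of 500 bp were tiled along chromosomes 1 to 19, without N and more than 5 kb from start sites (3853644 windows). Further copies were sought with minimap2 2.31. Code ran under Python 3.11.15 with numpy 2.4.6 and scipy 1.17.1, and figures were drawn with matplotlib 3.10.9. Named were up to 4 genes per list with the most members nearest, the 15 genes with the most in the body, the 5 largest runs, the richest bin and chromosome, the edges of the rule and the members with both factors. Further bins and chromosomes, and some of the 13 members with both factors, were singled out after their values were seen. Members, lists and motifs were chosen with earlier results of these data known. Some items that this rule selects are not reported here. No test was made.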

Additional observations from a re-analysis of the deposited data

Results flagged for a closer look

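Old-only peaks far from start sites also occurred outside the set described. On chromosome X there were 147 such peaks of 500 bp, beside 258 young-only ones, and 3 of the 147 (2.04%) met an old Kap1 peak. Wider than 500 bp on chromosomes 1 to 19 were 51, beside 79 young-only ones, and 24 of the 51 (47.1%) met an old Kap1 peak. The widest (chr4:42888407-42890395, 1989 bp) was nearest to Fam205c and met old Kap1.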

How the results depend on the processing

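Of 91 values under alternatives, 67 stayed within the interval of the value reported (for counts, within 1.5 times it). The number of members was 3095 in the first 50% of the old list, an alternative chosen after seeing the data. Members with old Kap1 (4.11%) were 3.6% beyond 10 kb from start sites, 3.38% with no young peak within 500 bp, 3.33% in the first 50% of the list, 3.10% where at least 50% of the factor peak was covered and 7.29% where a factor peak 500 bp away still counted. With young Kap1 (7.5%) they were 8.07% with start sites of protein-coding genes only, 6.60% with no young peak within 500 bp, 6.14% in the first 50% of the list, 6.68% without the 10 densest Mb (also chosen after seeing the data), 5.63% at 50% cover and 11.9% with that gap. Old Setdb1 (0.866%) was 0.549% in the first 50% of the list and 1.95% with the gap, and young Setdb1 (2.47%) 2.0%, 1.94% at 50% cover and 4.91%. List genes with a member, the cell type marker lists left out, fell from 91 to 47 of 301 (15.6%) at a limit of 20 kb, beside 7.98% of all protein-coding genes at that limit. The cause of these shifts was not tested, apart from the wider or narrower overlap that an alternative itself sets. The difference from young-only peaks in old Kap1 lay between -2.33 and -1.52 points over 7 alternatives, and each interval stayed below 0. No paired analysis was possible because the livers of an age were merged before peaks were called, and for the same reason no liver could be left out.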
